A study of Mus musculus with 8 samples.

Results

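The genes described here cut, protect or crosslink the extracellular matrix: matrix metalloproteinases (MMPs), their tissue inhibitors (TIMPs), the ADAM and ADAMTS proteases, the ADAMTS-like proteins, the lysyl oxidases and the lysyl hydroxylases. They were taken by gene symbol (Mmp, Timp1 to Timp4, Adam, Adamts and Adamtsl with a number, Lox, Loxl1 to Loxl4 and Plod1 to Plod3). The symbols are not a measured value, but these families were picked for description with earlier results of these data known. Of the 18088 genes counted, 49 carried such a symbol, and 46 of these passed the filter on low counts and were tested. Adam1a, Adam8 and Adam33 were too low to be tested. The other genes of these families were not analysed here.

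The libraries came from 3T3-L1 cells, a mouse preadipocyte line that is turned into adipocytes in culture. Differentiated adipocytes of wildtype genotype were detached with Accutase and transfected on Matrigel, a basement membrane extract, with 1.25 nM siRNA per square cm, either against Erk3 (siErk3, 4 libraries) or nontargeting (siNTC, 4 libraries), and were taken 48 h later. Poly(A) RNA was sequenced, and each library held 9854522 to 9943572 counts. All libraries are of a single cell line, and the labels do not say whether the replicates were separate cultures, so the p-values measure the spread between these libraries only.

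Mapk6, which encodes the kinase ERK3, checked the labels. It lay at 588, 572, 558 and 599 counts per 1000000 (CPM) in siNTC replicates 1 to 4 and at 74.8, 71.6, 68.5 and 63.5 CPM in siErk3 replicates 1 to 4. Its log2 fold change was -3.06 (SE 0.0586, adjusted p = 2.09e-22 in edgeR's quasi-likelihood test). An exact two-sided permutation test over the libraries gave p = 0.0286, the smallest that 4 against 4 libraries allow. Every adjusted p below comes from the same edgeR fit over 17972 genes, and a gene was called when its adjusted p was under 0.05.

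MMPs, ADAMs and ADAMTS proteases share a catalytic domain that holds a zinc ion. MMPs are made as inactive precursors and cut collagens and other matrix proteins once activated, while the TIMPs block them by occupying the active site. ADAMs sit in the plasma membrane and release the outer parts of other membrane proteins, a step called shedding, and ADAMTS proteases are secreted and cut proteoglycans and procollagens. Lysyl hydroxylases modify lysines of collagen inside the cell, and lysyl oxidases then crosslink collagen and elastin outside it. In fat tissue this matrix surrounds every adipocyte and is remodelled as the cells fill with or lose lipid.

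The annotated proteins show which members can carry the zinc site. The zinc-binding histidine signature of these proteases was found in a coding transcript of all 10 MMPs, of 9 of 11 ADAMs and of 9 of 13 ADAMTS proteases. Adam2 and Adam23 lacked it. Adamts1, Adamts4, Adamts9 and Adamts15 lacked the searched form, in which a glycine stands before the last histidine, and carried an asparagine in place of that glycine, a variant searched only after the first result was seen. The signature was absent from the TIMPs, the ADAMTS-like proteins, the lysyl oxidases and the lysyl hydroxylases. The cysteine switch is the stretch of the propeptide that keeps an MMP inactive. Its searched form, PRCGXPD with X any residue, was found in 6 MMPs, namely Mmp1b, Mmp2, Mmp13, Mmp14, Mmp15 and Mmp24. Variants of these letters were not searched, so the other MMPs were not shown to lack the switch.

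The bases before the transcription start are shown for Mmp13 and Timp1, the members with the largest rises in siErk3, and for Mmp15, the member with the largest fall for which a RefSeq window was given. Each sequence is the 250 bases before the RefSeq start on the gene's own strand (GRCm38.p6), at chr9:7272264-7272513 for Mmp13, chrX:20869916-20870165 for Timp1 and chr8:95352046-95352295 for Mmp15, all on the plus strand. Capitals mark matches to TGAGTCA (the AP-1 site), GAAANNGAA (the core of the interferon response element) or GTAAACA (a FOXO site) on either strand.
Mmp13: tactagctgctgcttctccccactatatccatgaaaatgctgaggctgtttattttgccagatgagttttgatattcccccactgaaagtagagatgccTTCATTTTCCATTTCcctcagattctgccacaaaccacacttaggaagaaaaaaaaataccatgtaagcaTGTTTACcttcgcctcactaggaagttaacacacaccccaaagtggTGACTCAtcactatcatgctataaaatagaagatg
Timp1: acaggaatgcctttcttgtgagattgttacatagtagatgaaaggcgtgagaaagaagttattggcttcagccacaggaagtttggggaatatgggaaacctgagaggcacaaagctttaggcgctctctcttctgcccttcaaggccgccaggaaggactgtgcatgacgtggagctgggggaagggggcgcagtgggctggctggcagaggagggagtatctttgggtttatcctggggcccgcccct
Mmp15: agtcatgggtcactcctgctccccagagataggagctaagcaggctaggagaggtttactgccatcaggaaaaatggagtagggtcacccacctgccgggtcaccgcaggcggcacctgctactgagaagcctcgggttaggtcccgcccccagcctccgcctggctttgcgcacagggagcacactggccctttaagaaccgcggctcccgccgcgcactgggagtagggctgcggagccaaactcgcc
The Mmp13 stretch held matches to each of the 3 motifs, while the Timp1 and Mmp15 stretches held none. In Mmp13 all matches lay on the minus strand, with the AP-1 letters 35 to 29 bases before the start and the FOXO letters 81 to 75 bases before it. Its GAAANNGAA matches overlapped each other, from 151 to 143 and from 145 to 137 bases before the start. GC content was 40.4% in the Mmp13 stretch, 54.4% in that of Timp1 and 63.6% in that of Mmp15, against a median of 52.4% over all windows. RefSeq windows of 300 bases, which also take in the first 50 transcribed bases, were matched by symbol for 32 of the 49 members, in 35 windows. TGAGTCA was in 3 of these windows (8.57%, those of Mmp13, Mmp1b and Adam19) and in 5.2% of all 32851 windows. GTAAACA was in 3 (8.57%, Mmp13, Adam8 and Adam19) against 3.65%, and GAAANNGAA in 2 (5.71%, Mmp13 and Plod3) against 8.56%. A match is a description of the letters and does not show that a factor binds there.

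Across the whole set, 17 of the 46 members tested were called higher in siErk3 and 13 lower, while 16 were not called. Over all genes tested 48.7% were called, 24.9% higher and 23.8% lower, and 65.2% of the members tested were called. With upper-quartile factors the split was 14 higher and 16 lower, or 46.7% higher among the calls in place of 56.7%. The median log2 fold change of the members was 0.0477 and that of all genes 0.000946. The median of the absolute changes was 0.438 for the members and 0.247 for all genes. The siErk3 and siNTC libraries did not overlap in 28 members, compared with 43.2% of all genes. At least 2-fold called changes were seen in 8 members (5 higher, 3 lower), compared with 6.38% of all genes. The 8 include Mmp13, Timp1 and Mmp15, which were in the table only or mainly through the group where they were higher. That favors a difference between the groups, and these genes are also among the 28 members without overlap. The plot of log2 fold changes by class shows rises and falls side by side within the secreted MMPs, the TIMPs, the ADAMs with a zinc site, the ADAMTS proteases and the lysyl hydroxylases.

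**Figure D1:**
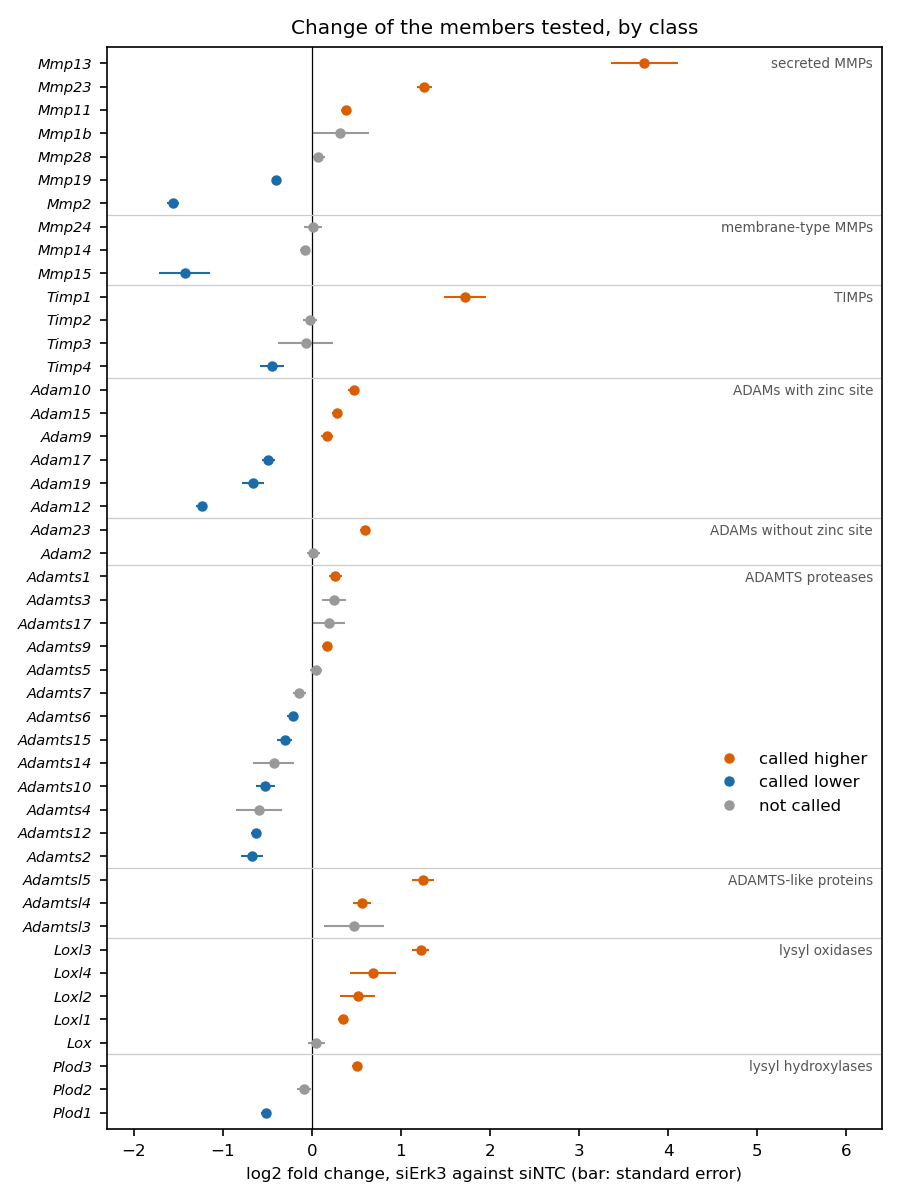
Log2 fold change of the 46 members tested in siErk3 against siNTC (x axis), with its standard error as a bar, by class (rows). Orange points were called higher (17), blue points lower (13) and grey points were not called (16). Mmp13 lies farthest to the right at 3.73 and Mmp2 farthest to the left at -1.56.

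What the counts take in bears on several members. In 3042 of the 3046 pairs of genes in the table with the span of the inner gene inside that of the outer gene, the outer gene had at least as many counts as the inner gene, and this held for all 1776 pairs on opposite strands. For nearly all pairs this is the pattern of reads counted over whole gene spans, introns included, without regard to strand and for every gene they touch. The spans of 21 members overlapped that of another gene in the table, and 6 members had such a gene inside their span. Gm10233 inside Adam2 had 76.4% as many counts as Adam2, Gm44609 inside Adamts17 had 78.0% and Gm16033 inside Adam19 had 38.8%. The share was 10.9% for Gm15737 and 6.89% for A730049H05Rik inside Adamts9, and 3.42% for Mir702 inside Plod3. Adam1a went against the pattern, with 69 counts against 2475 for Gm42878, which lies inside it on the same strand. Reads of a member and of such a neighbour cannot be told apart in these counts.

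**Figure D2:**
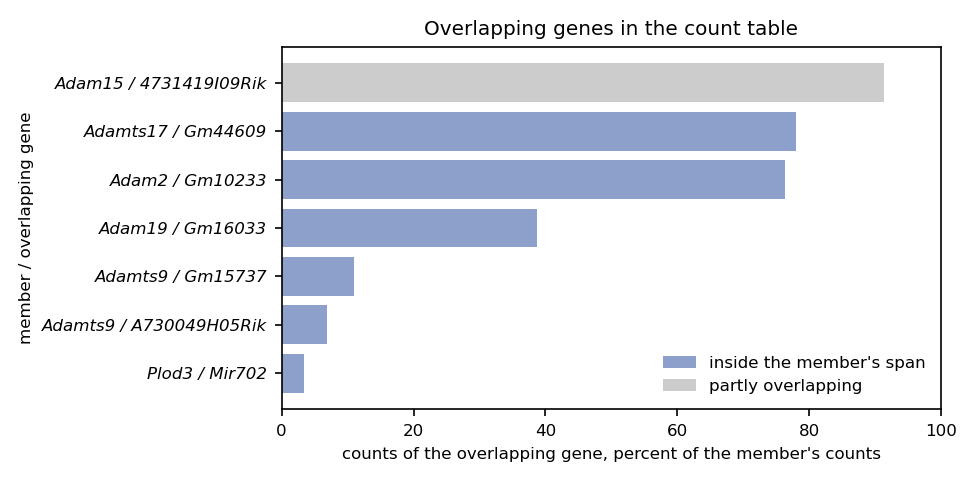
Counts of genes that overlap a member, as a percentage of that member's counts, both summed over the 8 libraries (x axis). Blue bars are genes inside the member's span and the grey bar is a partly overlapping gene. The bar reaches 91.3% for 4731419I09Rik at Adam15, 78.0% for Gm44609 at Adamts17 and 76.4% for Gm10233 at Adam2. Adam1a, where Gm42878 had 3590% of the counts of the member, is not drawn.

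Among the secreted MMPs, 3 of 7 rose (Mmp13, Mmp23 and Mmp11), 2 fell (Mmp2 and Mmp19) and 2 were not called (Mmp28 and Mmp1b). Mmp13 (chr9:7272514-7283331, plus strand, mm10), or collagenase-3, cuts fibrillar collagens. It lay at 0.417, 0.207, 0.417 and 0 CPM in siNTC replicates 1 to 4 (4, 2, 4 and 0 counts) and at 2.80, 4.74, 3.02 and 3.96 CPM in siErk3 replicates 1 to 4 (29, 48, 31 and 40 counts). Its log2 fold change of 3.73 (SE 0.375, adjusted p = 1.57e-08) was the largest of the set. Mmp13 was over 1 CPM in no siNTC library and thus was in the table only through the siErk3 libraries, so that its groups had to differ. The range of its log2 fold change without each of the 8 libraries in turn, 3.34 to 4.04, is under the same limit and does not test the rise.

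Mmp23 (chr4:155650655-155653384, minus strand), which lacks the hemopexin domain of most MMPs and is anchored in the membrane until it is cut free, lay at 9.37, 9.81, 10.5 and 9.05 CPM in siNTC and at 23.5, 22.4, 23.1 and 24.2 CPM in siErk3. All siErk3 libraries were thus above all siNTC libraries, at a log2 fold change of 1.26 (SE 0.0870, adjusted p = 2.36e-11). Mmp11, or stromelysin-3, was the most abundant secreted MMP, at 89.0, 102, 90.4 and 82.7 CPM in siNTC and 122, 122, 119 and 114 CPM in siErk3. The groups did not overlap and the log2 fold change was 0.39 (SE 0.0599, adjusted p = 1.08e-05).

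Mmp2 (chr8:92827291-92853420, plus strand), or gelatinase A, cuts denatured collagen and the collagen of basement membranes. It lay at 55.3, 57.2, 60.3 and 64.6 CPM in siNTC and at 19.8, 19.4, 20.5 and 20.7 CPM in siErk3. The siErk3 libraries lay close together and far below the siNTC libraries, with a log2 fold change of -1.56 (SE 0.0677, adjusted p = 3.2e-15), the largest fall of the set. Mmp19 fell from 77.9 ± 2.999 to 59.2 ± 2.17 CPM (mean ± SD, n = 4 per group), at a log2 fold change of -0.40 (adjusted p = 2.19e-06). Mmp19 lies wholly inside an antisense gene (ENSMUSG00000112429) that had 102% of its counts and a log2 fold change of -0.39. Mmp28 was at 32.9 ± 3.07 and 34.7 ± 0.766 CPM (siNTC and siErk3) and Mmp1b at 1.09 ± 0.194 and 1.37 ± 0.619 CPM, neither called (adjusted p = 0.407 and 0.424).

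Of the membrane-type MMPs, which stay anchored at the cell surface, Mmp15 fell and Mmp14 and Mmp24 were not called. Mmp14, or MT1-MMP, is the main activator of the Mmp2 precursor. It lay at 76.7, 80.4, 78.9 and 73.2 CPM in siNTC and at 72.2, 69.3, 77.3 and 74.6 CPM in siErk3. These ranges overlapped, and the log2 fold change was -0.076 (SE 0.0553, adjusted p = 0.271). The sign of this value turned when only library sizes were used, and upper-quartile factors made Mmp14 a called fall. Mmp15 was far less abundant, at 1.77, 1.96, 2.09 and 1.89 CPM in siNTC and at 0.483, 0.987, 0.487 and 0.890 CPM in siErk3. It fell in every siErk3 library, at a log2 fold change of -1.43 (SE 0.285, adjusted p = 0.000225). Mmp15 was over 1 CPM of the total counts in 4 siNTC libraries but in only 1 siErk3 library. It was thus in the table mainly through the siNTC libraries, where it was higher, which favors a difference between the groups. Mmp24 was at 18.2 ± 2.88 and 18.4 ± 1.78 CPM (adjusted p = 0.912).

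The inhibitors moved apart from each other. Timp1 rose, Timp4 fell and Timp2 and Timp3 were not called, and the summed level of the TIMPs ran from 31.4 to 38.1 CPM in siNTC and from 33.3 to 36.3 CPM in siErk3. Timp1 (chrX:20870166-20874735, plus strand), a secreted inhibitor of most MMPs, lay at 0.729, 1.96, 1.15 and 0.947 CPM in siNTC and at 4.35, 3.55, 4.09 and 3.96 CPM in siErk3. Its log2 fold change was 1.72 (SE 0.236, adjusted p = 1.89e-06) without overlap of the groups, although it stayed a low-level transcript in both. Timp1 was over 1 CPM in 2 siNTC and 4 siErk3 libraries, and thus was in the table mainly through the siErk3 libraries. It lies wholly inside Syn1, on the opposite strand. Syn1 had 133% of the counts of Timp1 and a log2 fold change of 1.15. Timp2, which also serves as the bridge between Mmp14 and the Mmp2 precursor, was the most abundant of these genes, at 22.1, 24.6, 28.1 and 22.6 CPM in siNTC and 23.2, 25.5, 23.2 and 24.2 CPM in siErk3. The groups overlapped, and its log2 fold change was -0.020 (SE 0.0821, adjusted p = 0.864), a sign that turned with library sizes only. Timp4 lay at 7.08, 5.99, 7.41 and 7.05 CPM in siNTC and at 4.45, 5.63, 5.55 and 4.55 CPM in siErk3, at a log2 fold change of -0.45 (SE 0.138, adjusted p = 0.00999). It lies wholly inside Syn2 and Gm17482, both on the opposite strand. Syn2 had 927% of the counts of Timp4 and a log2 fold change of -0.33, and Gm17482 had 233% and -0.30. Timp3, the inhibitor that binds to the matrix, was at 1.85 ± 0.664 and 1.77 ± 0.912 CPM (adjusted p = 0.874). Mmp2 thus fell in libraries in which neither Mmp14 nor Timp2 was called.

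**Figure D3:**
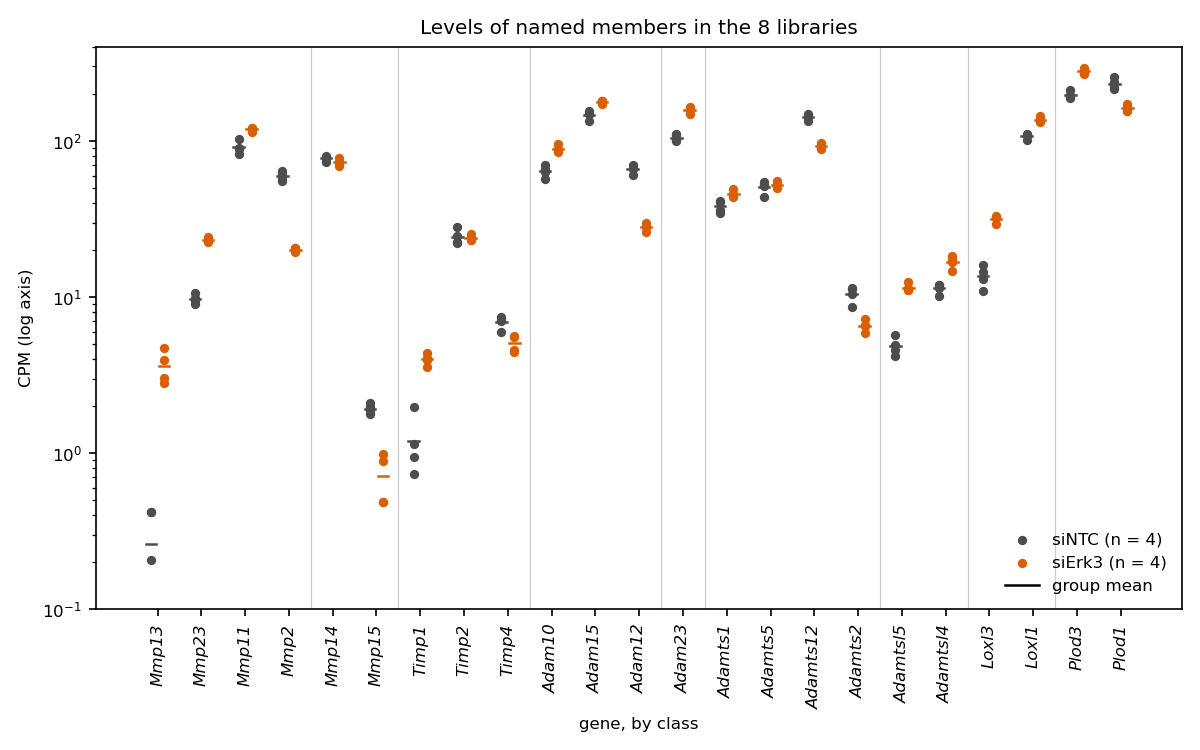
CPM on a log axis (y) of the 23 members given library by library, with 4 siNTC points in grey and 4 siErk3 points in orange for each gene (x axis) and short bars for the group means. The siNTC library without Mmp13 counts has no point on this axis. The groups are clearly apart for Mmp13, Mmp2, Timp1, Adam12 and Loxl3, and overlap for Mmp14, Timp2 and Adamts5.

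All 6 ADAMs with the zinc signature that were tested changed, 3 upward (Adam10, Adam15 and Adam9) and 3 downward (Adam12, Adam19 and Adam17). Adam10 and Adam17 are the principal sheddases of the cell surface. Adam10 lay at 66.3, 70.5, 57.3 and 63.0 CPM in siNTC and at 84.8, 87.1, 89.1 and 95.5 CPM in siErk3. It rose in every siErk3 library, with a log2 fold change of 0.47 (SE 0.0627, adjusted p = 1.27e-06). Adam17, the converting enzyme of tumor necrosis factor, went the other way, from 47.3 ± 4.13 to 33.7 ± 1.98 CPM (log2 fold change -0.49, SE 0.0702, adjusted p = 3.92e-06). The groups did not overlap for either gene. The last 311 bases of the Adam17 span, at its 3′ end, are shared with Iah1, which had 76.5% as many counts and a log2 fold change of -0.56.

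Adam12 (chr7:133883199-134232146, minus strand), a protease of fusing and differentiating mesenchymal cells, lay at 67.0, 66.4, 60.9 and 70.5 CPM in siNTC and at 29.8, 27.9, 28.6 and 26.1 CPM in siErk3. The siErk3 libraries stayed far below the siNTC libraries, at a log2 fold change of -1.24 (SE 0.0640, adjusted p = 1.04e-13). Adam19 fell from 8.65 ± 0.525 to 5.48 ± 0.478 CPM (log2 fold change -0.66, SE 0.124, adjusted p = 0.000116). With the counts of Gm16033 taken away 61.2% of the Adam19 counts were left, and the log2 fold change was -0.89 (SE 0.166, adjusted p = 0.000103).

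Adam15 was the most abundant ADAM, at 148, 135, 149 and 154 CPM in siNTC and 173, 180, 181 and 180 CPM in siErk3. It rose without overlap by a log2 fold change of 0.28 (SE 0.0524, adjusted p = 0.000101). The antisense gene 4731419I09Rik covers 81.1% of its span, had 91.3% of its counts and showed a log2 fold change of 0.27. Adam9 was called higher (93.1 ± 10.5 and 105 ± 6.52 CPM, log2 fold change 0.17, adjusted p = 0.0434), but its groups overlapped. Its call was lost without siNTC replicate 3 (adjusted p = 0.169) or 4 (0.0884) and without siErk3 replicate 1 (0.0648), 3 (0.0649) or 4 (0.158).

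Of the ADAMs without the zinc signature, which act in adhesion rather than proteolysis, Adam23 rose and Adam2 was not called. Adam23 lay at 109, 99.5, 110 and 101 CPM in siNTC and at 162, 159, 166 and 150 CPM in siErk3, a rise in all siErk3 libraries (log2 fold change 0.60, SE 0.0543, adjusted p = 2.95e-09). Adam2, known from sperm, was at 28.0 ± 1.02 and 28.4 ± 2.22 CPM (adjusted p = 0.856). With the counts of Gm10233 taken away 23.6% of its counts were left, at a mean of 6.13 CPM for siNTC and 7.14 CPM for siErk3 (log2 fold change 0.22, SE 0.146, adjusted p = 0.222).

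Among the 13 ADAMTS proteases 5 fell (Adamts2, Adamts12, Adamts10, Adamts15 and Adamts6), 2 rose (Adamts1 and Adamts9) and 6 were not called. With library sizes only Adamts6 lost its call and Adamts3 was called higher. With upper-quartile factors Adamts9 lost its call, and Adamts4 and Adamts7 were called lower. The summed level of the class ran from 500.3 to 535 CPM in siNTC and from 448 to 486 CPM in siErk3, without overlap. Adamts12 (chr15:11064790-11349231, plus strand), the most abundant by CPM, lay at 149, 143, 134 and 145 CPM in siNTC and at 97.7, 92.1, 90.6 and 88.9 CPM in siErk3. It fell in every siErk3 library, at a log2 fold change of -0.63 (SE 0.0538, adjusted p = 1.17e-09). Per kilobase of annotated exon Adamts6 lay above Adamts12, at 14.3 against 13.1 CPM in siNTC and 12.3 against 8.45 CPM in siErk3. Adamts2, which removes the amino-terminal propeptide of procollagen, lay at 10.5, 8.57, 11.5 and 11.3 CPM in siNTC and at 7.25, 6.51, 5.84 and 6.63 CPM in siErk3. This was the largest called fall of the class (log2 fold change -0.67, SE 0.124, adjusted p = 9.22e-05). Adamts14 and Adamts3, which share this activity, were at 3.36 ± 0.891 and 2.50 ± 0.786 CPM and at 7.88 ± 1.47 and 9.37 ± 1.10 CPM and were not called (adjusted p = 0.132 and 0.125). Without siErk3 replicate 4 Adamts14 was called lower (0.0417), and without siNTC replicate 4 Adamts3 was called higher (0.0279).

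The ADAMTS proteases that cut aggrecan and versican did not move as a group. Adamts1 lay at 41.5, 40.7, 34.6 and 36.0 CPM in siNTC and at 45.3, 43.7, 49.1 and 45.6 CPM in siErk3, a small rise (log2 fold change 0.27, SE 0.0677, adjusted p = 0.00229). Adamts9 was at 80.2 ± 1.99 and 90.2 ± 6.42 CPM (log2 fold change 0.17, adjusted p = 0.0174). Its adjusted p was 0.079 without siErk3 replicate 1, and 0.00953 with the counts of its nested genes taken away. Adamts5 lay at 51.8, 54.3, 43.6 and 52.5 CPM in siNTC and at 51.2, 52.3, 49.7 and 55.2 CPM in siErk3. It was not called, with overlapping groups and a log2 fold change of 0.044 (SE 0.0660, adjusted p = 0.617). Adamts15 was lower (26.1 ± 2.14 and 21.2 ± 1.90 CPM, adjusted p = 0.00428), and Adamts4, at 2.03 ± 0.279 and 1.34 ± 0.479 CPM, was not called (0.0649). Adamts4 was called lower without siErk3 replicate 1 (0.0408) or 2 (0.0377).

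The remaining members of the class were Adamts10, which binds fibrillin and fell from 14.9 ± 1.64 to 10.3 ± 1.06 CPM (adjusted p = 0.000294), and Adamts6, which fell from 112 ± 4.83 to 96.1 ± 8.60 CPM (adjusted p = 0.00573). Adamts7 (32.1 ± 1.53 and 29.1 ± 1.63 CPM) and Adamts17 (3.46 ± 0.812 and 3.97 ± 0.476 CPM) were not called. With the counts of Gm44609 taken away Adamts17 fell below the filter on low counts.

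The ADAMTS-like proteins have no protease domain and bind fibrillin microfibrils. Of the 3 tested Adamtsl5 and Adamtsl4 rose, and Adamtsl3 (0.757 ± 0.348 and 1.05 ± 0.118 CPM) was not called (adjusted p = 0.261). Adamtsl5 (chr10:80339110-80348412, minus strand) lay at 4.17, 5.68, 4.59 and 4.94 CPM in siNTC and at 11.0, 12.4, 11.1 and 11.5 CPM in siErk3, at a log2 fold change of 1.25 (SE 0.123, adjusted p = 1.3e-08). Adamtsl4 lay at 11.3, 11.9, 12 and 10.2 CPM in siNTC and at 16.8, 17.4, 18.4 and 14.6 CPM in siErk3, at a log2 fold change of 0.56 (SE 0.0978, adjusted p = 4.39e-05). For both genes every siErk3 library was above every siNTC library.

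The lysyl oxidases leaned upward. Loxl1 to Loxl4 were called higher and Lox was not called, and the summed level of the class ran from 155 to 159.7 CPM in siNTC and from 198 to 221 CPM in siErk3. With upper-quartile factors Loxl2 lost its call and the sign of Lox turned. Loxl1, needed for the upkeep of elastic fibers, was the most abundant, at 111, 101, 110 and 109 CPM in siNTC and 132, 134, 137 and 145 CPM in siErk3. The groups did not overlap (log2 fold change 0.35, SE 0.0534, adjusted p = 9.18e-06). Loxl3 (chr6:83034173-83052562, plus strand) lay at 10.9, 13.1, 14.4 and 16.1 CPM in siNTC and at 29.4, 32.2, 32.6 and 33.1 CPM in siErk3. It had the largest change of the class, 1.22 on the log2 scale (SE 0.0930, adjusted p = 1.43e-10). The 3′ end of Loxl3 overlaps that of Htra2, which rose from 58.1 ± 1.81 to 96.9 ± 2.70 CPM, and reads in the shared 1297 bases cannot be assigned to either gene.

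Loxl2 (2.19 ± 0.308 and 3.13 ± 0.446 CPM, adjusted p = 0.0342) and Loxl4 (1.51 ± 0.516 and 2.44 ± 0.618 CPM, adjusted p = 0.0295) were low and their calls depended on single libraries. Loxl2 lost its call without siNTC replicate 2 (adjusted p = 0.0609) or 3 (0.0989) and without siErk3 replicate 1 (0.0527), 2 (0.0759) or 4 (0.0928). Loxl4 lost its call without siNTC replicate 1 (0.0906), 3 (0.0674) or 4 (0.0803) and without siErk3 replicate 3 (0.135). Lox, the founding enzyme, was at 31.8 ± 6.34 and 33.0 ± 2.93 CPM (log2 fold change 0.052, SE 0.0994, adjusted p = 0.698). Its siNTC replicate 2 stood at 41.3 CPM against 28.5 to 28.9 CPM in the others. Without this library the log2 fold change was 0.20 and Lox was called higher (adjusted p = 0.0375).

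The lysyl hydroxylases split. Plod3, which also glycosylates collagen, rose, Plod1, which acts on the helical part of collagen, fell, and Plod2, which acts on its telopeptides, was not called. Plod3 (chr5:136987019-136996648, plus strand) lay at 188, 197, 212 and 190.2 CPM in siNTC and at 292, 271, 284 and 268 CPM in siErk3 (log2 fold change 0.50, SE 0.0533, adjusted p = 3.86e-08). Plod1 (chr4:147909753-147936767, minus strand) lay at 221, 256, 237 and 216 CPM in siNTC and at 156, 166, 173 and 157 CPM in siErk3 (log2 fold change -0.51, SE 0.0582, adjusted p = 1.11e-07). Neither gene had overlapping groups, and the summed level of the class ran from 441 to 495 CPM in siNTC and from 457 to 489.5 CPM in siErk3. Plod2 was at 35.4 ± 5.11 and 33.3 ± 1.36 CPM (adjusted p = 0.404).

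**Figure D4:**
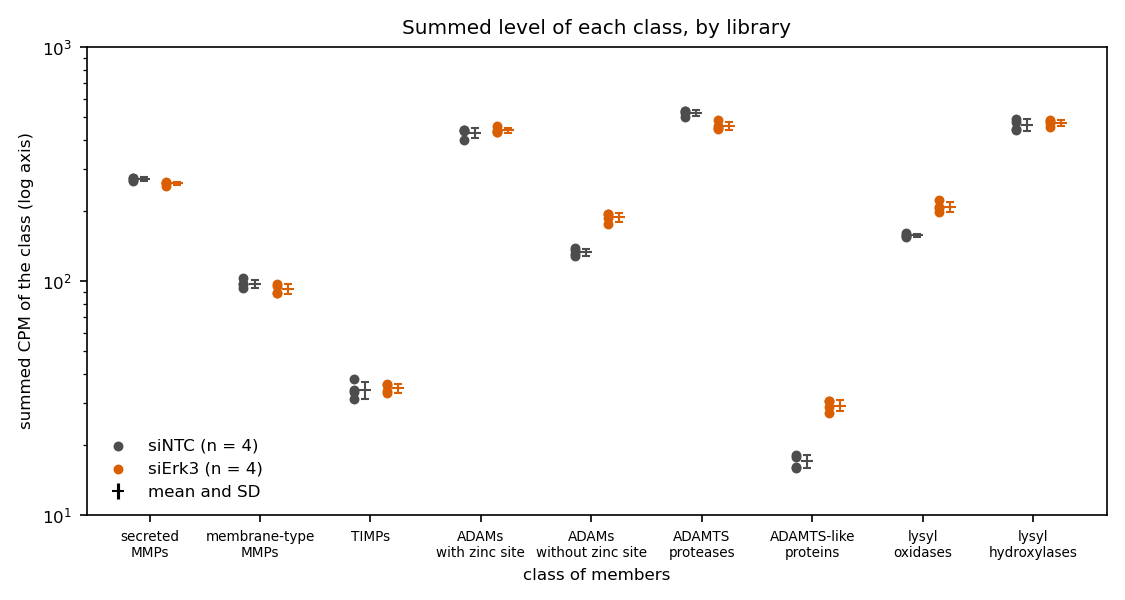
Summed CPM of each class on a log axis (y) in each library, with 4 siNTC points in grey, 4 siErk3 points in orange and the mean with SD beside them. The siErk3 sums lie above the siNTC sums for the lysyl oxidases (198 to 221 against 155 to 159.7 CPM) and the ADAMTS-like proteins (27.2 to 30.7 against 15.9 to 18.1 CPM) and below them for the ADAMTS proteases (448 to 486 against 500.3 to 535 CPM).

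Levels were compared between members as CPM per kilobase of annotated exon, a scale that ignores intron reads within the counts. In siNTC the highest were Plod3 (43.6 CPM per kilobase), Plod1 (34.4), Mmp11 (32.8), Loxl1 (32.6) and Adam15 (23.9), of which Plod1, Mmp11 and Loxl1 did not differ from each other beyond their spread. In siErk3 Plod3 stayed first (61.8 CPM per kilobase), ahead of Mmp11 (42.8) and Loxl1 (41.5), which lay within their spread of each other. Mmp2 went from place 8 (17.6 CPM per kilobase) to place 22 (5.96), and Mmp23 from place 25 (4.14) to place 12 (9.96). Mmp13 was the lowest of the 49 in siNTC (0.0973 CPM per kilobase) and in place 33 in siErk3 (1.36).

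Genes that act with the members were taken from lists of 79 genes, of which 55 were in the table and all 55 were tested. Of these 22 were called higher and 11 lower, or 60.0% called against 48.7% of all genes tested. With library sizes only the split was 28 higher and 7 lower. In the plasmin system and among other matrix proteases 5 of 10 rose and 1 fell (60.0% called). Htra3, a serine protease of the matrix, lay at 48.4, 50.7, 47.6 and 40.8 CPM in siNTC and at 81.3, 90.1, 82.4 and 82.5 CPM in siErk3 (log2 fold change 0.84, adjusted p = 1.48e-10). Ctsk, a collagen-cutting cathepsin (3.26 ± 0.176 and 4.99 ± 1.44 CPM, adjusted p = 0.0118), and Prss23 (2.40 ± 0.405 and 3.60 ± 0.631 CPM, adjusted p = 0.0173) were called higher as well, but their groups overlapped. Mme, or neprilysin, fell from 3.15 ± 0.682 to 1.71 ± 0.218 CPM (log2 fold change -0.88, adjusted p = 0.00162).

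In procollagen maturation and hydroxylation 4 of 16 genes rose, 3 fell and 9 were not called, and the 43.8% called lay below the 48.7% of all genes. The procollagen C-proteinase enhancers Pcolce (66.2 ± 3.32 and 97.2 ± 5.92 CPM, log2 fold change 0.55, adjusted p = 3.5e-08) and Pcolce2 (3.23 ± 0.561 and 5.18 ± 0.577 CPM, log2 fold change 0.68, adjusted p = 0.00158) rose. Bmp1, the C-proteinase itself, was at 32.2 ± 1.49 and 32.7 ± 1.48 CPM and was not called (adjusted p = 0.81). Ppib, a partner of the prolyl 3-hydroxylases, rose from 70.2 ± 5.74 to 93.0 ± 2.46 CPM (adjusted p = 4.35e-06). P3h3 (log2 fold change -0.59, adjusted p = 6.84e-05) and P3h4 (-0.20, 0.0148), which act together with Plod1 on collagen lysines, fell, as did P4ha2, a prolyl 4-hydroxylase subunit (-0.33, 0.00084).

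Among genes that control the proteases 5 of 12 rose and 1 fell, and the 50% called lay near the 48.7% of all genes. The ADAM10 partner Tspan17 (28.2 ± 1.93 and 37.5 ± 0.697 CPM, adjusted p = 1.89e-05), the ADAM17 partner Rhbdf2 (25.2 ± 2.56 and 33.0 ± 2.03 CPM, adjusted p = 0.000226) and the proprotein convertase Pcsk5 (17.1 ± 1.38 and 21.7 ± 1.43 CPM, adjusted p = 0.00188) rose. Bsg, or basigin, an inducer of MMPs, lay at 1560.0, 1827, 1712 and 1734 CPM in siNTC and at 1137, 1252, 1257 and 1233 CPM in siErk3, a fall of 0.49 on the log2 scale (log2 fold change -0.49, SE 0.0556, adjusted p = 1.3e-07). Reck, a membrane inhibitor of MMPs, was at 3.44 ± 0.604 and 3.99 ± 0.433 CPM and was not called (adjusted p = 0.325).

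Of 17 known substrates of ADAM10 or ADAM17 that were counted, 8 rose and 6 fell (82.4% called, against 48.7% of all genes tested). Vcam1, an adhesion molecule, lay at 14.3, 13.1, 12.7 and 15.6 CPM in siNTC and at 46.6, 40.8, 38.2 and 41.3 CPM in siErk3 (log2 fold change 1.58, SE 0.0838, adjusted p = 1.59e-13). The growth factors Ereg (0.677 ± 0.133 and 1.81 ± 0.616 CPM, adjusted p = 0.000839) and Hbegf (0.625 ± 0.361 and 1.62 ± 0.614 CPM, adjusted p = 0.0043) rose at a low level. Ereg was over 1 CPM in no siNTC library and passed the filter only through the siErk3 libraries, so that its groups had to differ. Hbegf was over 1 CPM in 1 siNTC and 3 siErk3 libraries, and thus was in the table mainly through siErk3. The groups of Hbegf overlapped. Dlk1, a preadipocyte protein shed by ADAM17, lay at 49.9, 48.9, 55.7 and 49.97 CPM in siNTC and at 7.05, 7.80, 7.30 and 8.70 CPM in siErk3 (log2 fold change -2.73, SE 0.0844, adjusted p = 3.56e-18). Cx3cl1 (12.8 ± 0.846 and 7.64 ± 1.13 CPM, adjusted p = 9.49e-06) and Jag1 (82.3 ± 2.57 and 56.2 ± 2.36 CPM, adjusted p = 1.25e-08) also fell. Transcript levels do not measure shedding.

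**Figure D5:**
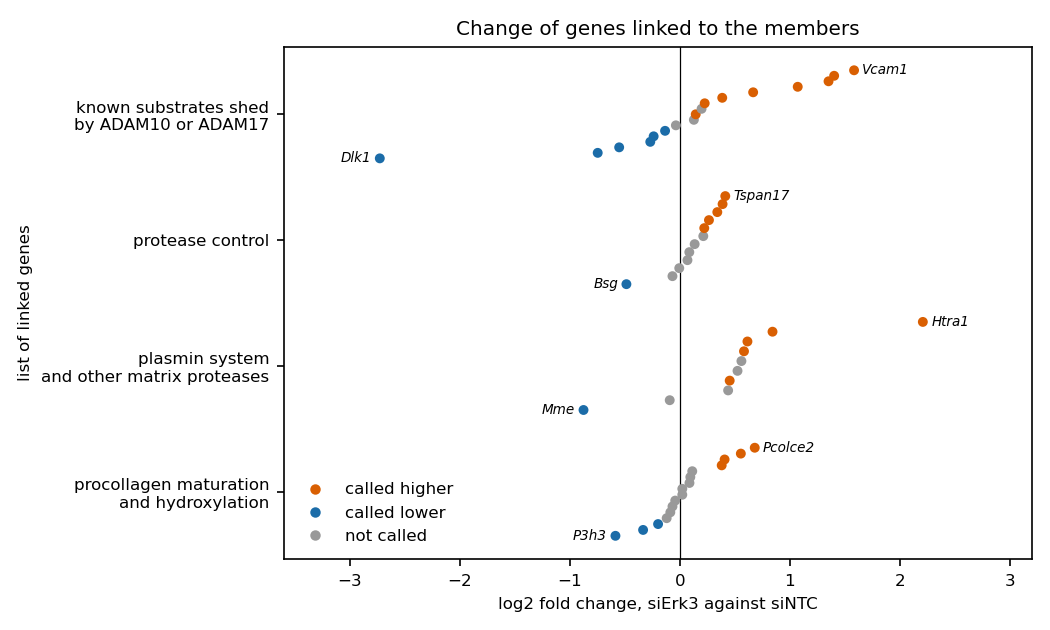
Log2 fold change in siErk3 against siNTC (x axis) of the 55 linked genes in 4 lists (rows), each point a gene, with orange for called higher (22), blue for called lower (11) and grey for not called (22). Htra1, with means of 0.287 and 1.37 CPM, lies farthest right at 2.21, and Dlk1 farthest left at -2.73. Htra1 was over 1 CPM in no siNTC library and passed the filter only through the siErk3 libraries, so that its groups had to differ.

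Markers of cell types moved between the groups as well. Of 30 markers counted, 5 were called higher and 21 lower (86.7% called). Over all genes tested 48.7% were called, 24.9% higher and 23.8% lower. All 10 adipocyte markers fell, with summed levels of 27100 to 29520 CPM in siNTC and 15660 to 16670 CPM in siErk3. Of 10 preadipocyte or fibroblast markers that were counted, 8 fell, S100a4 was not called, and Ly6a rose from 3.47 ± 0.576 to 307 ± 11.4 CPM. With Ly6a included, these markers summed to 915 to 997 CPM in siNTC and 1035 to 1106 CPM in siErk3. Of 7 macrophage or leukocyte markers listed, 3 were in the table, while Ptprc, Adgre1, Itgam and Lyz2 were not. These 3 summed to 9.90 to 14.5 CPM in siNTC and 20.4 to 25.0 CPM in siErk3, with Cd14 and Cd68 higher and Csf1r not called. Cd68 was low (0.834 ± 0.271 and 1.74 ± 0.311 CPM) and over 1 CPM in 1 siNTC and 4 siErk3 libraries, and thus was in the table mainly through siErk3. Endothelial markers were limited to Pecam1 at 0.914 ± 0.306 and 1.35 ± 0.202 CPM, not called. Smooth muscle or pericyte markers summed to 30.1 to 34.0 CPM in siNTC and 36.6 to 40.0 CPM in siErk3, with 2 of 3 higher, and all 3 markers of cycling cells fell (15.8 to 17.2 and 7.62 to 8.60 CPM). Mmp2 and Adam12 fell alongside the adipocyte markers, most of the preadipocyte or fibroblast markers and the markers of cycling cells. The part of any of these cell types in the falls was not tested. In such bulk libraries fewer cells of a type and less RNA per cell cannot be told apart.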

How the data were processed

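Poly(A) RNA of 8 libraries (4 siErk3, 4 siNTC) was sequenced by the authors, who deposited raw gene counts. Bcl2fastq, FastQC, Bowtie2, edgeR and mm10 are listed in the processing notes, while the counter and its strand setting are not given in the sources used here. The authors also deposited their own comparison (log2 fold changes, mean log2 CPM, p-values and adjusted p-values), which was not used. The kit does not mark strand.

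All columns were mapped by their names to the labels. The counts were fitted with edgeR 4.0.16 (R 4.3.3; TMM factors, filterByExpr at 10 counts and 15 in total, quasi-likelihood test, Benjamini-Hochberg over 17972 genes, called at adjusted p under 0.05). The SE is the absolute log2 fold change divided by the square root of F. CPM uses the effective library sizes. Library totals differed by little, the common biological coefficient of variation was 6.08%, and low counts limit the precision of members near 1 CPM. The scripts were tested on simulated data. Alternatives used DESeq2 1.42.0, limma-voom 3.58.1, other factors, filters and thresholds, the replicate number, and fits without each library.

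Coordinates, exon lengths and overlaps come from GENCODE M21 (GRCm38, the build of mm10) and promoter windows from RefSeq (GRCm38.p6). Protein letters were read in translated GENCODE M21 transcripts (HEXXHXXGXXH for the zinc site, PRCGXPD for the cysteine switch, X being any residue) in place of RefSeq proteins. The members and lists were chosen with earlier results of these data known.

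Values in every library are given for the most abundant member of each class, members called with an at least 2-fold change and a mean of at least 1 CPM, the largest called change in each direction of each class, the 2 most abundant members not called, and Mapk6. Abundance here is the mean CPM over all 8 libraries, without regard to gene length. Linked genes named by rule are at most 3 called per direction and list. Bmp1, Reck, Htra1 and the neighbours of members were named after their values were seen.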

Additional observations from a re-analysis of the deposited data

Results flagged for a closer look

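Both groups of 4 libraries were examined for each of the 49 members and Mapk6, 100 groups in all. Dixon's rule was used, which sets the gap between a library and the nearest of the others against the range of its group. A library was flagged in 5 groups, with gaps of 0.859 to 0.973 of the range, and 5 is the number that chance gives at 1 in 20. Lox was at 41.3 CPM in siNTC replicate 2 and at 28.5 to 28.9 CPM in the other siNTC libraries. Timp3 was at 2.84 CPM in siNTC replicate 4, against 1.46 to 1.65 CPM in the others. Adam17 was at 41.1 CPM in siNTC replicate 3, against 49.2 to 49.8 CPM, and kept its call without that library. Adam15 was at 173 CPM in siErk3 replicate 1, against 179.6 to 181 CPM. Mmp28 was at 33.5 CPM in siErk3 replicate 4, against 35.0 to 35.1 CPM.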

How the results depend on the processing

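Of the 30 called members 25 kept their call under every alternative in which they were tested. The exceptions were Adam9, Loxl2, Loxl4, Adamts9 and Adamts6, and none of the 30 changed sign. Counts of members called ran from 14 to 17 higher and from 13 to 14 lower without each library in turn, and were 14 and 13 with DESeq2, 12 and 12 at 5 CPM or more in at least 4 libraries, where fewer genes were tested, and 13 and 13 at an adjusted p under 0.01. With library sizes only 28 linked genes were called higher and 7 lower in place of 22 and 11; this setting moved the median log2 fold change of all genes to 0.0871 and upper-quartile factors moved it to -0.069. Uncalled members whose sign turned were, with upper-quartile factors, Adamts5 (-0.027), Adam2 (-0.051), Lox (-0.019) and Mmp24 (-0.053) and, with library sizes only, Timp2 (0.066), Timp3 (0.016) and Mmp14 (0.011). Without each library in turn the log2 fold change ran from -0.033 to 0.056 for Adam2, from -0.077 to 0.11 for Mmp24, from -0.021 to 0.080 for Adamts5, from -0.064 to 0.056 for Timp2, from -0.47 to 0.21 for Timp3 and from -0.0060 to 0.20 for Lox.

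With the replicate number as a block 17 members were called higher and 13 lower, as without it, and Mapk6 was at -3.06. The numbers did not pair the libraries (correlations of same-numbered libraries between -0.0158 and 0.0554). Taking away the counts of nested genes, an alternative chosen after seeing the data, gave 17 and 13. Members near 1 CPM rest on few counts.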

Other observations

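The TIMP genes illustrate how the counts were shared. Timp1 lies inside Syn1, Timp3 inside Syn3 and Timp4 inside Syn2, each on the opposite strand, and the synapsins are genes of nerve terminals. Over the 8 libraries Syn1 had 277 counts and Timp1 209, and Syn3 had 195 and Timp3 143, while Syn2 had 4358 and Timp4 470. Timp4 also lies inside Gm17482, which had 1097 counts. Syn1 had a log2 fold change of 1.15 beside the 1.72 of Timp1, and Syn3 had 0.31 beside the -0.070 of Timp3. Syn2 had -0.33 and Gm17482 -0.30 beside the -0.45 of Timp4. Reads of each pair cannot be told apart in these counts.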
